A study of Mus musculus with 79 samples.

Results

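Marker genes of the cortical layers were examined in ribosome-bound mRNA of neurons that carry dopamine receptors. The 9 genes, of 25899 in the deposited table, were taken by name: Cux1 and Cux2 for the superficial layers, Etv1 and Fezf2 for layer 5, Tle4 and Tbr1 for layer 6, and Nxph4, Ctgf and Cplx3 for layer 6b. The question was which layers the D1 neurons of prefrontal cortex resemble, and what the same genes do in striatum, which has no layers. The libraries were made by bacTRAP, in which a bacterial artificial chromosome (BAC) transgene puts a green fluorescent tag on the ribosomal protein L10a in the cells that use a chosen promoter, so that their ribosomes can be pulled down with the mRNA they carry. All mice were heterozygous for such a transgene on a C57BL/6J background, driven by the promoter of either the D1a receptor gene or the D2 receptor gene. Each library pooled tissue from 3 mice of both sexes, and no drug treatment or age is given in the labels. The 5 groups were D1 prefrontal cortex (n = 19), D1 dorsal striatum (n = 15), D1 ventral striatum (n = 15, punched from nucleus accumbens), D2 dorsal striatum (n = 16) and D2 ventral striatum (n = 14). The tag marks every cell type in which the transgene's promoter is active, so a library is a mixture.

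The cerebral cortex is built of layers whose excitatory neurons differ in their targets. Superficial neurons project within the cortex, layer 5 holds the neurons that project to brainstem and spinal cord, layer 6 holds the corticothalamic neurons, and layer 6b is the remnant of the embryonic subplate. Transcription factors fix much of this identity during development and stay on at lower levels in the adult, and D1 receptors in rodent prefrontal cortex are known chiefly from the deep layers. In striatum the D1 and D2 receptors mark the GABAergic projection neurons of the direct and the indirect pathway, which are not cortical in origin.

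All 9 genes were placed in the RefSeq annotation of mouse GRCm38.p6. Cux1 (chr5:136248135-136567590) and Cux2 (chr5:121857962-122050415) lie on the minus strand of the same chromosome. Etv1 is at chr12:38780082-38870483 on the plus strand, Fezf2 at chr14:12338992-12346803 and Tle4 at chr19:14448072-14598183 on the minus strand, and Tbr1 at chr2:61802863-61814114 on the plus strand. Nxph4 is at chr10:127525473-127534559 on the minus strand, Ctgf, now named Ccn2, at chr10:24595442-24598683 on the plus strand, and Cplx3 at chr9:57599992-57606281 on the minus strand. How reads were assigned to genes, and by which strand, was not given in the sources used here. Ctgf shares 665 bases, 23.2% of its exon bases, with the opposite-strand Gm15270. That gene had a median of 1.33 CPM in prefrontal cortex and no more than 2.67 CPM in any of the 79 libraries. Cux1 shares 1.97% of its exon bases with Gm16599, which stayed at or below 0.125 CPM.

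Values are in CPM, read counts scaled by the authors to a common library total. The reads assigned to genes numbered between 7.35 and 30.8 M (mega), 17.5 M in the median library, so that 3 reads correspond to between 0.0373 and 0.140 CPM; intervals from depth cover counting error only. The receptor genes followed the labels in striatum. Drd1a was between 139 and 288 CPM in the D1 striatal libraries and at or below 40.6 CPM in the D2 ones, and Drd2 was at or above 337 CPM in D2 and at or below 16.2 CPM in D1 striatum. In D1 prefrontal cortex Drd1a was between 9.52 and 44.8 CPM. The summed level of 7 markers of cortical excitatory neurons was between 483 and 829 CPM in prefrontal cortex, and that of 6 markers of striatal projection neurons between 76.5 and 413 CPM there, against at least 1421 CPM in every striatal group. D1 prefrontal cortex replicate 6 held the highest striatal sum (413 CPM, the next 281 CPM). Library names begin with 1 of 4 letter codes of unstated meaning, treated as a possible batch; EM, the commonest, covers 15 of the 19 cortex libraries.

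Genes of all 4 layer classes were detected in the D1 prefrontal cortex libraries, and Tbr1 stood above the rest. No input or unbound fraction was analysed here, so background of the pull-down was not measured. Glial mRNA was present too: 5 oligodendrocyte markers summed to between 32.6 and 77 CPM and 5 astrocyte markers to between 9.40 and 55.4 CPM. The oligodendrocyte gene Mbp was at 15.4, 25.7 and 37.2 CPM (lowest, median and highest) and the astrocyte gene Slc1a3 at 4.35, 11.9 and 40.8 CPM, levels that overlap those of the layer 6b gene Cplx3. The part of this background in the layer genes' levels was not tested. Tbr1, a T-box transcription factor of early-born cortical neurons that is strong in layer 6, had a lowest, median and highest level of 70.5, 94.5 and 121 CPM over the 19 libraries. Tle4, a Groucho-family co-repressor of corticothalamic neurons, was at 18, 29.8 and 53.0 CPM. No library had Tle4 as high as the lowest Tbr1 value.

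Fezf2, the zinc finger factor that specifies the subcerebral projection neurons of layer 5, was at 17.8, 25.7 and 41.7 CPM. Etv1, an ETS factor of layer 5, was at 19.8, 35.4 and 49.9 CPM. Both were present at well over 1 CPM in every cortex library, and their ranges overlapped. The homeodomain factors of the superficial layers were in a like range: Cux1 was at 20.0, 29.7 and 37.6 CPM. Cux2 was at 15.8, 23.9 and 37.7 CPM.

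In CPM not divided by length, the layer 6b genes had lower medians and varied more. Cplx3, a complexin that acts on the vesicle fusion machinery, was at 4.10, 16.6 and 40.7 CPM. Ctgf, a secreted matrix-associated growth factor and a classical subplate marker, was at 1.63, 8.84 and 13.5 CPM. Nxph4, a neurexophilin and secreted neurexin ligand, was at 0.259, 1.24 and 4.15 CPM, with 12 of 19 libraries at 1 CPM or more. The 3 BdP libraries, between 2.93 and 4.15 CPM, lay above all 15 EM libraries for Nxph4, and also for Cplx3 (24.0 to 35.4 CPM against 4.10 to 21.4 CPM). The single JAG library had the highest Cplx3 and the highest Tle4 of the group.

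**Figure D1:**
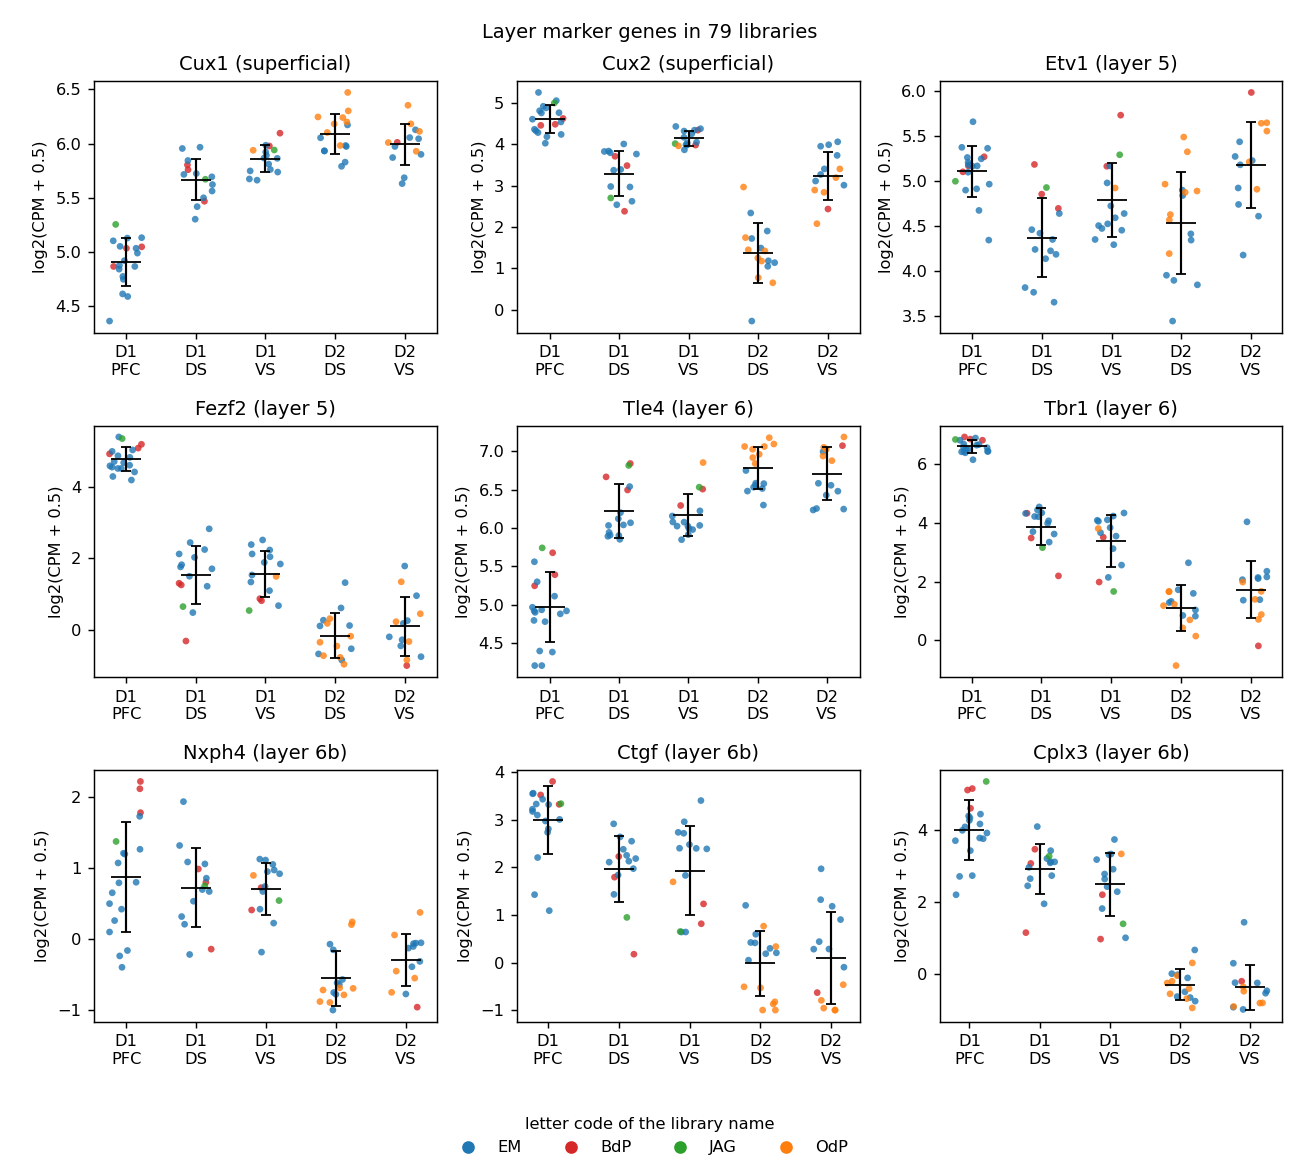
Each point is 1 library, coloured by the letter code of its name, on a log2 scale of CPM plus 0.5, in D1 prefrontal cortex (PFC), dorsal striatum (DS) and ventral striatum (VS); the black bar is the mean and the whiskers 1 SD. Tbr1 and Fezf2 in cortex lie above every striatal library, Cux1 and Tle4 in cortex lie below every striatal library, and Cplx3 separates all 15 D1 from all 16 D2 dorsal striatum libraries.

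Because long transcripts collect more reads, levels of different genes were compared per kilobase of annotated exon. In D1 prefrontal cortex the mean level per kilobase was 17.8 ± 2.58 CPM for Tbr1 (SD, n = 19), above Fezf2 in 19 of 19 libraries. Fezf2 followed at 9.08 ± 2.24 CPM per kilobase and exceeded Cplx3 in 16 of 19. Cplx3 at 6.16 ± 3.36 and Tle4 at 5.65 ± 1.81 CPM per kilobase did not differ beyond their spread, Cplx3 being the higher in 10 of 19 libraries. Tle4 was above the next gene, Ctgf, in every library. Ctgf at 2.88 ± 1.08, Etv1 at 2.60 ± 0.482 and Cux2 at 2.44 ± 0.578 CPM per kilobase overlapped widely, and each exceeded the next in 11 of 19 libraries. Cux2 exceeded Cux1 (1.49 ± 0.220 CPM per kilobase) in all 19, and Cux1 exceeded Nxph4 (0.958 ± 0.681) in 15. On this scale the layer 6 gene Tbr1 was first, and the last 3 were the superficial genes Cux2 and Cux1 and the layer 6b gene Nxph4. The order does not measure the share of each layer. Markers can differ in level per cell, and no whole-cortex reference was used. The middle of the order depends on the length used: with the longest annotated transcript, a choice made after seeing the data, Tle4 stood above Cplx3 in 14 of 19 libraries and Etv1 above Ctgf in 15.

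The same promoter was then compared between cortex and dorsal striatum. On log2(CPM + 0.5), with limma and Benjamini-Hochberg adjustment over all genes tested, 8 of the 9 genes differed at an adjusted p under 0.05, where 54.8% of all tested genes did. Cortex had the higher level for 6 of them and the lower level for 2, where 32.3% and 22.5% of all tested genes did so (3766 and 2622 genes; edgeR on the recovered reads split them 3119 to 3472). For 5 of the 9 no cortex library overlapped a dorsal striatum library, against 10.5% of all tested genes. Leaving out D1 prefrontal cortex replicate 6, with its high striatal sum, also called 8 genes, with Tle4 at -1.27. Markers of other cell types moved with these comparisons. The 8 measured markers of GABAergic interneurons summed to between 128 and 315 CPM in cortex, above all D1 dorsal (63.8 to 100.0 CPM) and ventral striatum libraries (26.2 to 60.9 CPM). Vip was 4.42 higher in cortex than in dorsal striatum on the log2 scale (SE 0.20, limma adjusted p = 6.62e-22) and Reln differed by -2.63 (SE 0.11, limma adjusted p = 8.97e-23). Vip reached 1 CPM in 4 of 15 D1 dorsal striatum libraries and passed the filter through cortex, so its test is no support on its own. The astrocyte sum, at least 9.40 CPM in cortex, ran from 3.34 to 15.9 CPM in D1 dorsal and from 2.12 to 8.77 CPM in D1 ventral striatum, and the oligodendrocyte sum from 51.2 to 172 CPM and from 42 to 75.5 CPM. The part of these cells in the differences of the layer genes was not tested. In bulk samples, fewer cells of a type and less RNA per cell cannot be told apart, and this holds for every difference given here.

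Fezf2 and Tbr1 showed the largest differences of the 9. In D1 dorsal striatum Fezf2 had a lowest, median and highest level of 0.305, 2.77 and 6.60 CPM, and Tbr1 of 4.08, 16.3 and 22.8 CPM. All 15 striatal libraries lay below all 19 cortex libraries for both genes. The log2 difference, cortex minus dorsal striatum, was 3.24 for Fezf2 (SE 0.19, limma adjusted p = 3.32e-18) and 2.74 for Tbr1 (SE 0.14, limma adjusted p = 8.37e-20). The mean in D1 dorsal striatum was 10.2% of that in cortex for Fezf2 and 15.5% for Tbr1.

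The other genes higher in cortex were Cux2, Cplx3, Ctgf and Etv1. Cux2 in D1 dorsal striatum was at 4.71, 10.0 and 15.6 CPM, just below its lowest cortex library at 15.8 CPM, a log2 difference of 1.32 (SE 0.14, limma adjusted p = 2.07e-10). Cplx3 was at 1.71, 8.03 and 16.7 CPM (log2 difference 1.10, SE 0.25, limma adjusted p = 0.000198). Ctgf was at 0.629, 3.88 and 7.05 CPM (1.03, SE 0.22, limma adjusted p = 0.000148), and both 6b genes overlapped between the regions. Etv1 at 12.1, 19.9 and 35.8 CPM overlapped too and differed by 0.74 (SE 0.12, limma adjusted p = 1.4e-06).

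Tle4 and Cux1 went the other way and were lower in cortex. Tle4 in D1 dorsal striatum was at 57.3, 66.6 and 114 CPM, every library above the highest cortex library, a log2 difference of -1.26 (SE 0.14, limma adjusted p = 1.29e-10). Cux1 was at 38.9, 51.2 and 62.0 CPM, again with no overlap, a difference of -0.76 (SE 0.08, limma adjusted p = 3.75e-11). The mean level in D1 dorsal striatum was thus 237% of the cortex mean for Tle4 and 170.3% for Cux1. Nxph4, at 0.360, 1.18 and 3.32 CPM in D1 dorsal striatum, did not pass the test (0.15, SE 0.22, limma adjusted p = 0.587), and its sign turned in the EM libraries alone (-0.16).

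Cortex against D1 ventral striatum used the same cortex libraries, so its values are given side by side and not as a second, independent result. The test called 8 of 9, where 62.8% of all tested genes passed. Again 6 were raised and 2 reduced in cortex, directions taken by 27.7% and 35.1% of all tested genes, and 4 of 9 did not overlap (12.6% of all tested genes). Tbr1 was at 2.67, 12.2 and 19.7 CPM in D1 ventral striatum (log2 difference 3.23, SE 0.19, limma adjusted p = 1.4e-18). Fezf2 was at 0.955, 2.40 and 5.22 CPM (3.22, SE 0.16, limma adjusted p = 7.46e-21). Both lay below every cortex library.

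Tle4 at 57.1, 67.0 and 115 CPM (-1.20, SE 0.12, limma adjusted p = 3.85e-11) and Cux1 at 50.1, 57.8 and 67.9 CPM (-0.95, SE 0.07, limma adjusted p = 8.29e-16) lay above every cortex library. Cux2 was closer to its cortex level here, at 14.1, 16.1 and 21.1 CPM (0.47, SE 0.09, limma adjusted p = 3.85e-05), and the groups overlapped. Cplx3 at 1.45, 5.73 and 12.9 CPM differed by 1.53 (SE 0.27, limma adjusted p = 4.06e-06). Ctgf at 1.06, 4.74 and 10.1 CPM differed by 1.06 (SE 0.26, limma adjusted p = 0.00042), a call that ends in EM libraries alone (0.63). Etv1 at 19.1, 24.4 and 52.5 CPM differed by 0.32 (SE 0.11, limma adjusted p = 0.0127). Nxph4 at 0.380, 1.17 and 1.68 CPM did not pass the test (0.17, SE 0.20, limma adjusted p = 0.47), and was -0.11 in EM libraries.

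**Figure D2:**
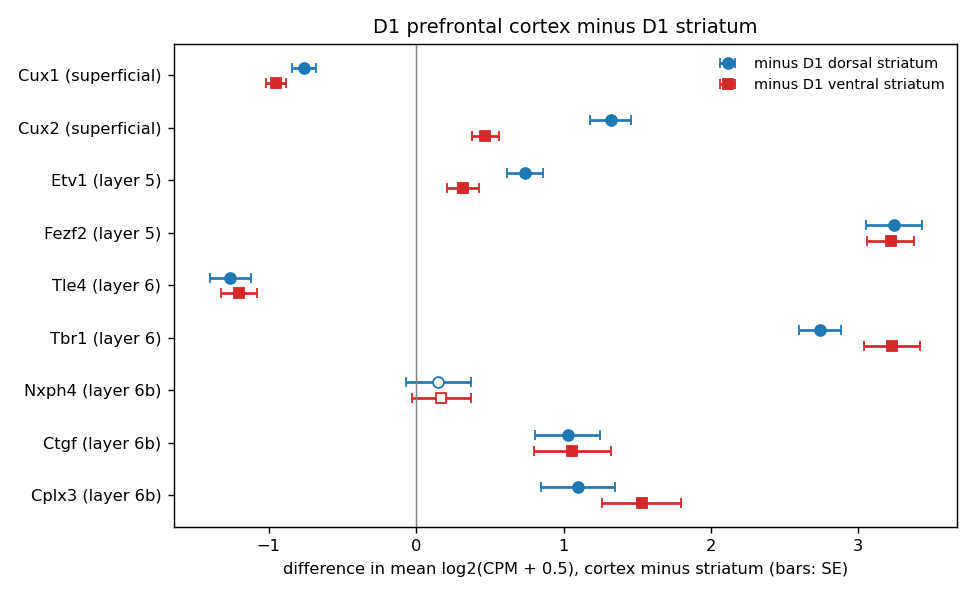
The x axis is the difference in mean log2(CPM + 0.5) of D1 prefrontal cortex minus D1 dorsal striatum (blue circles) or D1 ventral striatum (red squares), with SE bars; filled symbols passed an adjusted p under 0.05. Fezf2 and Tbr1 lie near 3 in both, Tle4 and Cux1 lie below 0, and Nxph4 did not pass in either.

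Other genes of the same layers, from lists that were chosen with earlier results of these data known, were also divided between cortex and D1 dorsal striatum. Of 8 tested markers of the superficial layers, 4 were higher and 3 lower in cortex (median log2 difference 0.39, against 0.05 over all genes tested). Of 9 tested layer 5 markers, 5 were higher and 3 lower (median 0.61). Of 6 layer 6 markers, 4 were higher and 2 lower (median 1.38). The 2 lower ones were Foxp2, a forkhead factor (-3.10, SE 0.16, limma adjusted p = 2.2e-20), and Syt6, a synaptotagmin (-2.13, SE 0.19, limma adjusted p = 4.58e-13); like Tle4, both are corticothalamic markers in cortex. Rprm, another corticothalamic marker, was higher in cortex (2.53, SE 0.22, limma adjusted p = 5.73e-13). Ntsr1 and Osr1 of layer 6 and Npr3 of layer 5, counted among the higher genes, reached 1 CPM in 0, 1 and 0 of the 15 dorsal striatum libraries and passed the filter through cortex, so the counts and medians describe the tested genes and support no direction of a list. Of 3 tested layer 6b markers 2 were higher, among them the nuclear receptor Nr4a2 (1.14, SE 0.19, limma adjusted p = 1.62e-06). Foxp2, whose product is also well known in striatal projection neurons, had a median of 10.1 CPM in cortex and 88.0 CPM in D1 dorsal striatum.

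The levels in D1 striatum were next set against Slc17a7, the vesicular glutamate transporter VGLUT1 of cortical excitatory neurons, in the same library. Slc17a7 itself had a lowest, median and highest level of 136, 237 and 437 CPM in cortex, 10.1, 38.6 and 54.4 CPM in D1 dorsal striatum and 5.32, 28.0 and 48.2 CPM in D1 ventral striatum. The mean log2 ratio of Tbr1 to Slc17a7 was -1.36 ± 0.37 in cortex (SD, n = 19), -1.22 ± 0.42 in dorsal striatum (SD, n = 15) and -1.21 ± 0.39 in ventral striatum (SD, n = 15). These differed by 0.13 (permutation test, adjusted p = 0.359) and 0.15 (permutation test, adjusted p = 0.307), two-sided, adjusted over 18 ratios. Fezf2 had ratios of -3.18 ± 0.48, -3.55 ± 0.62 and -3.03 ± 0.55, differences of -0.37 (permutation test, adjusted p = 0.0735) and 0.16 (permutation test, adjusted p = 0.377). None of these 4 differences passed the test, which does not show that the ratios are equal. The outcome depended on settings chosen after seeing the data: with a pseudocount of 0.1 Fezf2 differed by -0.60 in dorsal striatum (permutation test, adjusted p = 0.00782). Against Neurod6, a transcription factor of the same neurons, Tbr1 differed by 0.49 in dorsal and 0.84 in ventral striatum (permutation test, adjusted p = 3.18e-05 and 1.12e-05).

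The other 7 genes were higher relative to Slc17a7 in both striatal groups, each with an adjusted p of 1.29e-05, which rests on the smallest p the 100000 resamples can give (1.00e-05). The cortex mean of Slc17a7 was itself 7.06 times that in D1 dorsal and 9.49 times that in D1 ventral striatum. Over all genes tested the median log2 difference, cortex minus striatum, was 0.05 and -0.07. A gene with an unchanged level thus rises on this ratio. The share of all genes that rise was not computed, so the count shows nothing particular to layer genes. The layer 6b genes were among these 7: Cplx3 rose by 1.78 in dorsal and 1.85 in ventral striatum, Ctgf by 1.85 and 2.31, and Nxph4 by 2.72 and 3.20, all log2 differences of ratios. Cux2 was higher by 1.56 and 2.91 and Etv1 by 2.14 and 3.06. Cux1, by 3.64 and 4.33, and Tle4, by 4.13 and 4.58, had the highest ratios.

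**Figure D3:**
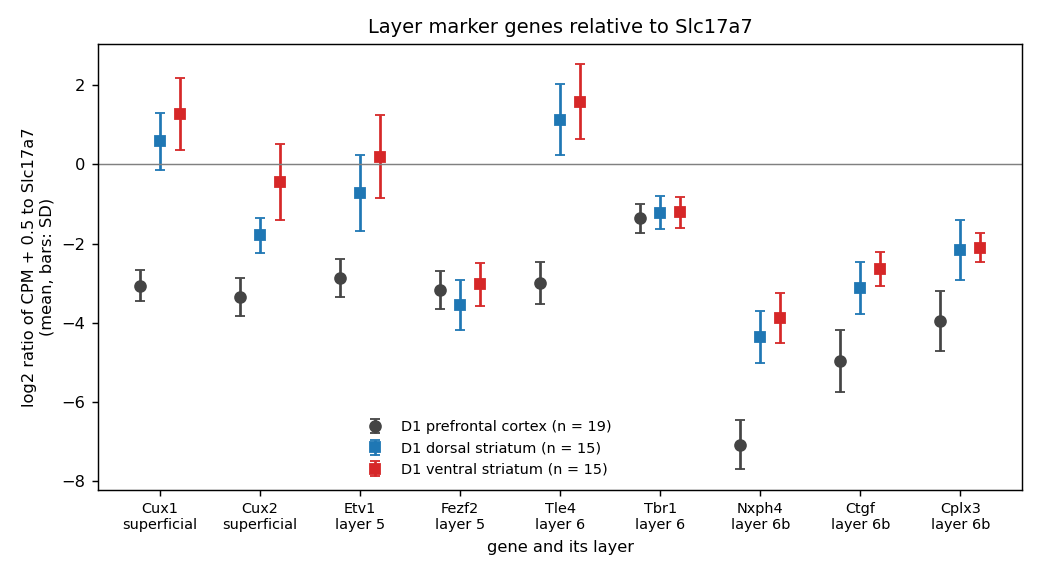
The y axis is the mean log2 ratio of a gene to Slc17a7 in the same library (0.5 CPM added to both), with SD bars, in D1 prefrontal cortex (grey circles), D1 dorsal striatum (blue squares) and D1 ventral striatum (red squares). For Tbr1 and Fezf2 the 3 symbols lie within 1 SD of each other, and for the other 7 genes both striatal means lie above the cortex mean.

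Next came the comparison of D1 with D2 neurons of dorsal striatum. Of the 8 genes that passed the filter on low values, 7 were called, where 25.9% of all tested genes were. D1 had the higher level for 5 of them and the lower level for 2, against 12.8% and 13% of all tested genes. Cplx3, Ctgf and Fezf2 were under 1 CPM in most D2 libraries and passed the filter through the D1 group, so their share is no support on its own.

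Cplx3 had the largest difference. It was at 0.0147, 0.291 and 1.08 CPM in D2 dorsal striatum, with 1 of 16 libraries reaching 1 CPM. No D2 library reached the lowest D1 library at 1.71 CPM, an absence of overlap seen in 1.18% of all tested genes. As Cplx3 passed the filter through the D1 group, this share is no support on its own either. The log2 difference, D1 minus D2, was 3.23 (SE 0.20, limma adjusted p = 1.12e-15), and the ratio of means was 22.8. Tbr1 in D2 was at 0.0515, 1.81 and 5.74 CPM, and 14 of 15 D1 libraries lay above all D2 libraries. It differed by 2.78 (SE 0.24, limma adjusted p = 1.35e-11).

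Ctgf in D2 was at 0, 0.645 and 1.80 CPM, with 2 libraries at 0 reads, and differed by 1.99 (SE 0.23, limma adjusted p = 2.33e-08). Fezf2 in D2 was at 0.0129, 0.335 and 2.00 CPM and differed by 1.70 (SE 0.25, limma adjusted p = 1.4e-06). Cux2 was at 0.326, 2.03 and 7.32 CPM, below 11 of the 15 D1 libraries throughout, and differed by 1.92 (SE 0.22, limma adjusted p = 1.06e-08). Nxph4 was left out by the filter. Its highest D2 value was 0.682 CPM, and 12 of 15 D1 libraries lay above it. Without the filter the difference was 1.27 (SE 0.17, limma adjusted p = 7.92e-07).

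Tle4 and Cux1 were again the exceptions and lower in D1. Tle4 in D2 was at 78.2, 110.2 and 144 CPM (-0.55, SE 0.11, limma adjusted p = 0.000261) and Cux1 at 54.8, 67.0 and 88.3 CPM (-0.42, SE 0.08, limma adjusted p = 7.35e-05); the groups overlapped for both. Etv1 at 10.4, 23.7 and 44.3 CPM did not pass the test (-0.16, SE 0.17, limma adjusted p = 0.496). The 8 OdP libraries of this group had no counterpart in D1 dorsal striatum. Within EM libraries the same comparison called 7 genes too, with Cplx3 at 3.25 and Tbr1 at 2.66.

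In ventral striatum 7 of the 8 tested genes passed as well, against 47.7% of all tested genes. D1 had the higher level for 5 and the lower for 2, as did 24.1% and 23.6% of all tested genes (2751 and 2692, or 3702 and 1885 when scaled to reads in genes). Cplx3, Fezf2 and Ctgf reached 1 CPM in only 1, 3 and 4 of the 14 D2 libraries and passed the filter through the D1 group, so this share too is no support on its own. Cplx3 in D2 ventral striatum was at 0, 0.214 and 2.20 CPM (2.88, SE 0.26, limma adjusted p = 1.06e-10). Ctgf was at 0, 0.574 and 3.42 CPM (1.83, SE 0.32, limma adjusted p = 2.63e-05). Tbr1 was at 0.378, 3.07 and 15.9 CPM (1.66, SE 0.31, limma adjusted p = 5.84e-05). D2 ventral striatum replicate 2 had the highest Cplx3, Tbr1 and Fezf2 of its group and was the library whose Cplx3 reached into the D1 range. It also held the highest sum of cortical excitatory markers in its group (72.0 CPM, group median 9.76 CPM). Without it the differences were 3.01 for Cplx3, 1.84 for Tbr1 and 1.59 for Fezf2, all still called.

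Fezf2 was at 0, 0.503 and 2.95 CPM (1.46, SE 0.25, limma adjusted p = 2.43e-05). Cux2 was at 3.73, 8.90 and 16.2 CPM (0.90, SE 0.15, limma adjusted p = 1.34e-05). Tle4 at 74.8, 106 and 145 CPM (-0.54, SE 0.11, limma adjusted p = 0.000234) and Etv1 at 17.6, 36.7 and 62.6 CPM (-0.39, SE 0.15, limma adjusted p = 0.0342) were lower in D1. Cux1 at 49.0, 63.9 and 81.3 CPM did not pass (-0.13, SE 0.07, limma adjusted p = 0.124). Nxph4, at 0.0145, 0.359 and 0.796 CPM in D2, was left out by the filter and without it differed by 1.00 (SE 0.14, limma adjusted p = 2.41e-06). When the model adjusted for the fraction of each library that fell in genes, limma called 4 genes (Cplx3, Ctgf, Fezf2 and Tbr1, all higher in D1). The call of Etv1 was lost with no filter on low values (limma adjusted p = 0.0633), when scaled to reads in genes (0.0939), with quantile normalization (0.0541), in EM libraries alone (0.0649) and without any 1 of D1 ventral striatum replicates 3, 7, 8, 9, 10 and 11 or D2 ventral striatum replicates 1, 7, 11, 12 and 13 (limma adjusted p up to 0.0695).

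**Figure D4:**
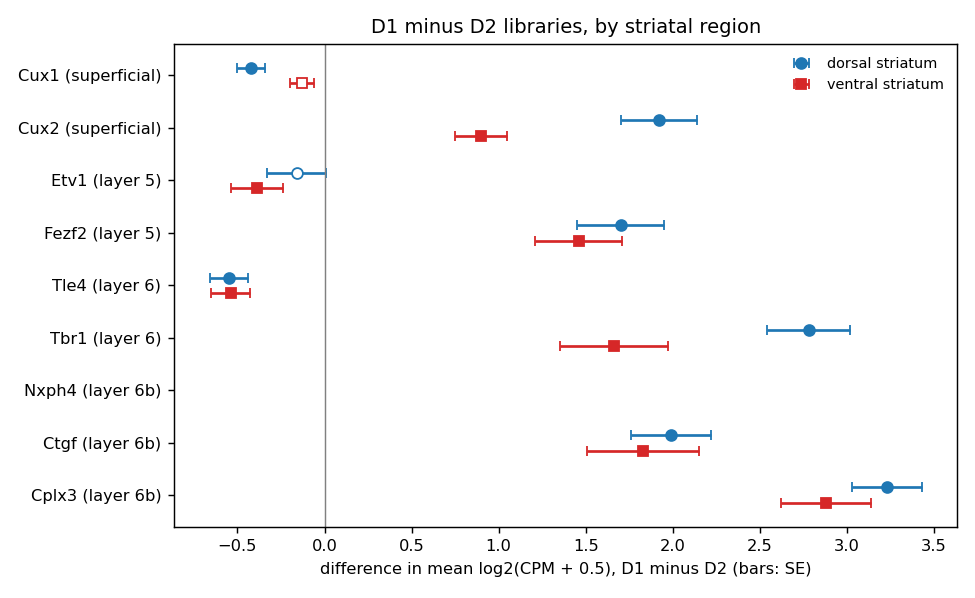
The x axis is the difference in mean log2(CPM + 0.5) of D1 minus D2 libraries in dorsal (blue circles) and ventral striatum (red squares), with SE bars; filled symbols passed an adjusted p under 0.05, and Nxph4 was not tested. Cplx3 lies furthest to the right in both regions, and Tle4 lies near -0.5 in both.

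Markers of cortical excitatory neurons moved with these differences. In dorsal striatum Slc17a7 was higher in D1 (3.23, SE 0.26, limma adjusted p = 1.48e-12). So was Neurod6 (3.34, SE 0.26, limma adjusted p = 6.23e-13), which reached 1 CPM in 5 of 16 D2 libraries and passed the filter through the D1 group, as did Neurod2. Of the 7 list genes, 3 did not pass the filter (Neurod1, Slc30a3 and Emx1). The sum of the 7 ran from 29.3 to 123 CPM in D1 and from 1.56 to 32.5 CPM in D2 dorsal striatum. In ventral striatum it ran from 14.7 to 100.0 CPM in D1 and from 2.78 to 72.0 CPM in D2. The 4 claustrum markers were also all higher in D1 in dorsal striatum (median 2.70, against 0.02 over all genes tested) and in ventral striatum, where Ntng2 reached 1 CPM in 5 of 14 D2 libraries and passed through the D1 group. Emx1 had a median of 0 in both D2 groups. The part of these cells in the levels of the layer genes was not tested. Vessel and fibroblast markers, which bear on Ctgf as a gene those cells also express, summed to a median of 0.196 CPM in D1 and 0.305 CPM in D2 dorsal striatum. The median was 0.129 CPM in D1 and 0.569 CPM in D2 ventral striatum, and 1.02 CPM in cortex, where the highest sum was 5.68 CPM. The endothelial Cldn5 had a median of 0 in every group, but was the 1 gene of the 6 with a median of 0 in cortex. Flt1 and Dcn had medians of 0.310 and 0.349 CPM there. The part of vessel and fibroblast cells in the level of Ctgf was not tested.

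On the log2 scale the receptor difference of Cux2 was not the same in the 2 regions. The median of Cux2 was 10.0 and 16.1 CPM in D1 and 2.03 and 8.90 CPM in D2, dorsal before ventral. Its mean was 9.95 CPM in D1 and 2.42 CPM in D2 dorsal striatum, and 17.3 and 9.66 CPM in ventral striatum. The ratio of means was thus 4.11 and 1.79, whereas the gap in CPM was of like size in both regions. Tested as an interaction over the 4 striatal groups, the log2 difference of D1 minus D2 was larger in dorsal striatum by 1.02 (SE 0.27, limma adjusted p = 0.0245), and Cux2 was the 1 gene called of 9, where 2.64% of all tested genes were. Tbr1 had an interaction of similar size that did not pass (1.12, SE 0.40, limma adjusted p = 0.137). The other 7 genes lay between -0.29 (Cux1, SE 0.10, limma adjusted p = 0.114, and -0.34 with 0.0364 when scaled to reads in genes) and 0.36 (Cplx3, SE 0.34, limma adjusted p = 0.664).

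Within a receptor, Cux2 was also the gene that differed most between the striatal regions. In D1 neurons it was lower in dorsal than in ventral striatum by 0.85 on the log2 scale (difference -0.85, SE 0.14, limma adjusted p = 1.33e-05), and 14 of 15 dorsal libraries lay below all ventral ones. In D1, 3 of 9 genes were called, all lower in dorsal striatum, against 34.6% of all tested genes called and 24.5% lower; besides Cux2 these were Etv1 (-0.42, SE 0.15, limma adjusted p = 0.025) and Cux1 (-0.19, SE 0.07, limma adjusted p = 0.025). The median over all genes tested was itself -0.12 here and -0.01 with median-ratio scaling, under which only Cux2 of the 9 was called and the split of all calls moved from 1144 higher and 2774 lower to 1663 and 1642. In D2 neurons Cux2 differed by -1.87 (SE 0.23, limma adjusted p = 4.47e-08), and 10 of 14 ventral libraries lay above all dorsal ones. Etv1 differed by -0.64 (SE 0.18, limma adjusted p = 0.00597). These were 2 of the 5 genes tested in D2, against 28.5% of all tested genes called and 20.6% lower (887 higher and 2302 lower, or 1398 and 1336 with median-ratio scaling). Tbr1 did not pass in either receptor class (0.49, limma adjusted p = 0.139 in D1 and -0.63, limma adjusted p = 0.108 in D2), but passed with the name code as a covariate (0.56, limma adjusted p = 0.0407 in D1 and -0.69, limma adjusted p = 0.0316 in D2). Tle4 did not pass (0.05 and 0.07). Of 8 markers of the superficial layers, 4 were lower and 0 higher in dorsal striatum in D1, and the others did not pass, with values of opposite sign for Lhx2 (0.22) and Pou3f2 (0.29). In D2, 6 of 8 were lower and 0 higher. Markers of other layers were lower in dorsal striatum in D1 too. These were Rprm (-1.26), Sulf1 (-0.66) and Foxp2 (-0.38) of layer 6, and Tcerg1l (-3.21), Crym (-2.09) and Tshz2 (-2.04) of layer 5. Pcp4 (1.54), Deptor (1.51) and Rbp4 (0.78) of layer 5 were higher, and Syt6 of layer 6 did not pass (0.12). A lower level in dorsal striatum was thus not particular to superficial markers.

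How the genes varied from library to library was examined within each D1 group. All 36 pairs were correlated on log2(CPM + 0.5), with two-sided permutation tests of 100000 resamples adjusted over the 36 pairs. In prefrontal cortex 15 pairs were called, 14 positive and 1 negative. Of the 14 positive ones, 13 joined genes of layers 5, 6 and 6b, but so do most of the 36 pairs examined. The share of called pairs among all gene pairs was not computed in any D1 group. The counts of called pairs, here and below, thus show nothing particular to layer genes.

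Ctgf and Cplx3 of layer 6b rose and fell together (r = 0.86, rho = 0.77, permutation p = 1.00e-05, adjusted p = 0.00012, n = 19). Without the 2 libraries farthest from the median of Ctgf r was 0.77, and within the 15 EM libraries it was 0.91. Tle4 of layer 6 followed Cplx3 (r = 0.87, rho = 0.79, permutation p = 1.00e-05, adjusted p = 0.00012; 0.82 without the 2 farthest libraries, 0.80 in EM) and Ctgf (r = 0.79, rho = 0.79, permutation p = 1.00e-05, adjusted p = 0.00012; 0.84 without the 2 farthest libraries, 0.84 in EM). These 3 pairs were also called within EM libraries. The remaining 10 positive deep-layer pairs had r between 0.55 and 0.76, and none of them was called in EM libraries alone, where r was between 0.28 and 0.63.

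The remaining positive pair joined the superficial genes. Cux1 and Cux2 correlated with r = 0.64 (rho = 0.61, permutation p = 0.00250, adjusted p = 0.00818), 0.47 without the 2 farthest libraries and 0.64 in EM (adjusted p = 0.0586). Cux2 and Tbr1 ran opposite to each other (r = -0.55, rho = -0.53, permutation p = 0.0152, adjusted p = 0.0366), with -0.43 without the 2 farthest libraries. The call ended with Spearman's rho (permutation test, adjusted p = 0.0552), as did that of Fezf2 and Cplx3 (adjusted p = 0.0864), while within the 15 EM libraries r was -0.79 (permutation test, adjusted p = 0.00441). Etv1 was in no called pair in cortex.

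**Figure D5:**
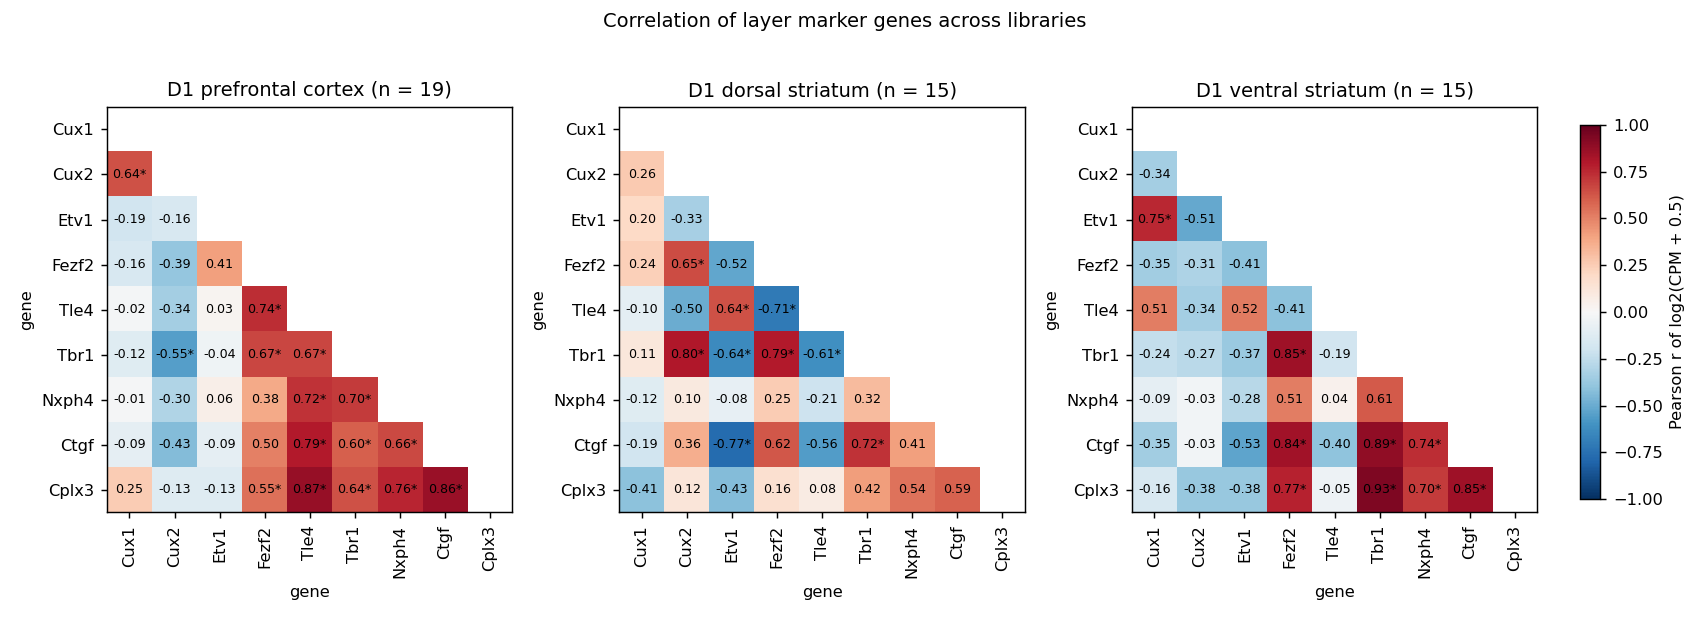
Each square gives the Pearson r of 2 genes across the libraries of a D1 group on log2(CPM + 0.5), red for positive and blue for negative, with a star where the adjusted permutation p was under 0.05. In prefrontal cortex the stars gather among Tle4, Tbr1, Nxph4, Ctgf and Cplx3, and in ventral striatum among Fezf2, Tbr1, Ctgf and Cplx3 without Tle4.

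Some of the cortex libraries held more striatal or other marker mRNA, and several layer genes moved with it. Tle4 correlated with the summed striatal markers (r = 0.65, rho = 0.58, permutation p = 0.00245, adjusted p = 0.0165; 0.60 without the 2 farthest libraries, 0.37 in EM). Cplx3 did so too (r = 0.60, rho = 0.64, permutation p = 0.00663, adjusted p = 0.0298; 0.63 and 0.35). Fezf2 correlated with the summed markers of GABAergic interneurons (r = 0.66, rho = 0.61, permutation p = 0.00220, adjusted p = 0.0165; 0.49 without the 2 farthest libraries, 0.71 in EM). Adjustment was over the 27 relations of a group, and the part of these cells in the pair correlations was not tested.

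In D1 ventral striatum 9 pairs were called, all positive, and 8 of them joined Fezf2, Tbr1, Nxph4, Ctgf and Cplx3. Tbr1 and Cplx3 had r = 0.93 (rho = 0.85, permutation p = 1.00e-05, adjusted p = 0.00036; 0.91 without the 2 farthest libraries, 0.93 in the 11 EM libraries). Tbr1 and Ctgf had r = 0.89 (rho = 0.83, permutation p = 2.00e-05, adjusted p = 0.00036; 0.87 and 0.94). The same genes followed the summed markers of cortical excitatory neurons: r was 0.96 for Tbr1, 0.93 for Ctgf, 0.93 for Cplx3, 0.85 for Fezf2 and 0.73 for Nxph4 (rho 0.93, 0.88, 0.88, 0.87 and 0.72; permutation p from 1.00e-05 to 0.00232, adjusted p from 9.00e-05 to 0.0122). In EM libraries these were 0.97, 0.93, 0.95, 0.81 and 0.85, and without the 2 farthest libraries 0.95, 0.91, 0.90, 0.76 and 0.60. Tle4, which was in called pairs with other deep-layer genes in cortex, was in no called pair here. Its r was -0.05 with Cplx3 and -0.40 with Ctgf, and 0.29 and 0.04 in the 11 EM libraries. Whether the correlations of Tle4 differ between cortex and striatum was not tested.

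In D1 dorsal striatum 9 pairs were called, 5 positive and 4 negative, but 0 were called with Spearman's rho, 0 in the 11 EM libraries and 0 without D1 dorsal striatum replicate 3, a BdP library that had the lowest Fezf2, Tbr1, Ctgf, Cplx3 and Cux2 and the highest Etv1 of its group. Their r could stay as large: Cux2 and Tbr1 had r = 0.80 in all 15 libraries, 0.83 in EM (permutation test, adjusted p = 0.0655) and 0.77 without that library (permutation test, adjusted p = 0.0605), and Tle4 and Tbr1 had r = -0.61, -0.72 in EM (permutation test, adjusted p = 0.122) and -0.56 without that library (permutation test, adjusted p = 0.209). Tbr1 was also related to the summed markers of cortical excitatory neurons there (r = 0.93, rho = 0.92, permutation p = 1.00e-05, adjusted p = 0.00027; 0.83 without the 2 farthest libraries, 0.93 in EM). Cux2 followed the same sum (r = 0.82, rho = 0.77, permutation p = 4.00e-05, adjusted p = 0.00054; 0.72 and 0.75).

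The 250 bases before the RefSeq start site (GRCm38.p6) are shown for Tbr1, Tle4 and Cplx3, examples of the deep-layer genes in the called cortex pairs. Their r in cortex was 0.87 for Tle4 with Cplx3, 0.67 for Tle4 with Tbr1 and 0.64 for Tbr1 with Cplx3, of which the last 2 were not called in EM libraries alone (0.48 and 0.41). They are printed 5′ to 3′ on the gene's strand, with matches to the searched motifs in capitals. The Tbr1 window is chr2:61804203-61804452 (plus strand), all of it within an exon of a longer annotated noncoding transcript of Tbr1; the Tle4 window is chr19:14598184-14598433 and the Cplx3 window chr9:57606282-57606531 (both minus strand), neither within an exon of its gene.
Tbr1: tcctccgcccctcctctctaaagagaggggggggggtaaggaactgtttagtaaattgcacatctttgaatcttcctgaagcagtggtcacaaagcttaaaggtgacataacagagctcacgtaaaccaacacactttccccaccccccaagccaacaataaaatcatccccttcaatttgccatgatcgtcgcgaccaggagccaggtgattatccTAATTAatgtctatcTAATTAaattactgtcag
Tle4: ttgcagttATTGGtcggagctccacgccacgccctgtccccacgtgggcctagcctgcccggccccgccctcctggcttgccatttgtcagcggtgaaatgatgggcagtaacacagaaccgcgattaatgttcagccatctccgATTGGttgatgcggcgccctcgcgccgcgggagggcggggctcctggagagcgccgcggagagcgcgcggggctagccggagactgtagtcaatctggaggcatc
Cplx3: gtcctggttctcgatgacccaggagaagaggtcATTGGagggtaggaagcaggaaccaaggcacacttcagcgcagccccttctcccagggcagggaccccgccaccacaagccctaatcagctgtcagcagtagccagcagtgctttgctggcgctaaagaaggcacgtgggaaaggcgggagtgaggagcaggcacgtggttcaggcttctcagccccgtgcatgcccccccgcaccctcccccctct

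Both strands were searched for 4 motifs, none of which overlapped another in these windows. Tbr1 held 2 copies of the homeodomain core TAATTA, beginning 33 and 18 bases before the start site, a motif found in 4.84% of 32851 RefSeq windows of this length and added to the search after the sequence had been read. Tle4 held 2 CCAAT boxes and Cplx3 1, all on the opposite strand as ATTGG, a motif of 33.8% of windows. None of the 3 windows held the NeuroD E-box CAGATG (14.4% of windows) or the T-box half-site AGGTGTGA (1.12%). A match is a description of letters, not a site.

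Genes with the most similar profile over all 79 libraries were ranked by Pearson r of log2(CPM + 0.5) among those averaging 1 CPM or more; the 5 groups are shared by all, so these are descriptions. Tbr1 was close to Slc17a7 and Neurod6 (r = 0.98 for each), both genes of cortical excitatory neurons. Fezf2 was closest to Tbr1 (0.96). Ctgf was closest to Cplx3 and Neurod2 (0.90 for each), and Cplx3 to Fxyd7 and Slc17a7 (0.92 for each). Tle4 was closest to Gnal (0.96), the G protein subunit through which the D1 receptor stimulates adenylyl cyclase in striatum, and to Syt6 (0.95). Cux1 was closest to Zfhx3 and Meis2 (0.93 for each), and Cux2 to Trp53i11 (0.92), with the superficial-layer gene Rasgrf2 among its 3 closest (0.91). Etv1 had no profile above 0.82 (Lnx1). Within the 19 cortex libraries alone Cplx3 was second closest to Ctgf (0.86), and Rai14 was among the 3 closest of Tle4 (0.92), Ctgf (0.84) and Cplx3 (0.89).

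Pools with 2 males were compared with pools with 1 male over the 77 libraries with complete sex labels, with group as a term. Of the 8 genes tested 0 were called by limma and 0 had an unadjusted p under 0.05, where 0.0961% of all tested genes were called. The log2 differences, 2 minus 1 males, lay between -0.17 (Ctgf) and 0.14 (Tle4). EdgeR's quasi-likelihood test on the recovered reads called 0 as well.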

How the data were processed

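The authors deposited CPM values for 25899 genes in 79 libraries; reads were paired and from polyA RNA per the labels' protocols. Trim Galore 0.4.2, cutadapt 1.9.1, FastQC, HISAT2 (version listed as 0.12.2) and the GRCm38 build are named in the submitters' processing notes; counter, annotation and strand are not given in the sources used here. The values were whole multiples of 1 read per column (100.0% of values above 0, tolerance 0.01 reads), so reads were recovered for edgeR 4.0.16. The column totals show that scaling was to more than the reads in genes (31.0% to 40.2% of the total). Comparing 592 library pairs within groups found none alike within sampling noise (lowest chi-square per degree of freedom 7.83). No molecular identifiers are described, so depth covers counting error only.

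Groups came from labelled region and receptor. Replicate numbers only name libraries, and whether regions share mice is not stated, so p-values measure the spread between these pools. Each comparison was fitted with limma 3.58.1 (R 4.3.3, eBayes with trend) on log2(CPM + 0.5), a scale that understates changes of low genes, using only the libraries of the groups compared. A gene entered with at least 1 CPM in as many libraries as the smaller group holds. Tests were two-sided, Benjamini-Hochberg adjusted over all genes tested. Correlations and ratios used permutation tests of 100000 resamples (numpy 2.4.6, scipy 1.17.1). On simulated counts for D1 against D2 in dorsal striatum (11090 genes) the fit found 100% of genes changed by 1 on the log2 scale and 28.6% of those changed by 0.5. Lengths are from GENCODE, positions and start-site sequences from RefSeq (GRCm38.p6), where 7 of the 9 genes had a promoter entry. The 9 genes, the lists and the rule for named genes (all 9 genes, list genes, and the 3 most similar genes of each) were chosen with earlier results of these data known. Alternatives were other pseudocounts, filters, scalings, edgeR, EM libraries alone, the code or the fraction of reads in genes as covariates, a block on consecutive library names, and libraries left out. Of the most similar genes 1 is not reported here, nor is an alternative that used it.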

Additional observations from a re-analysis of the deposited data

Results flagged for a closer look

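The D1 minus D2 difference of Cux2, the homeodomain factor of superficial cortical neurons, was larger in dorsal than in ventral striatum by 1.02 on the log2(CPM + 0.5) scale (SE 0.27, limma adjusted p = 0.0245, interaction over the 4 striatal groups). It drew attention because 2 regions gave unlike effects on the log2 scale under the same contrast, by a test of that difference. In CPM the gap between the D1 and D2 means was of like size in both regions. The means were 9.95 and 2.42 CPM in dorsal and 17.3 and 9.66 CPM in ventral striatum, D1 before D2. The log2 differences themselves were 1.92 in dorsal and 0.90 in ventral striatum, and the difference between them stayed between 0.86 and 1.46 and past the threshold in all 11 alternatives run (highest adjusted p 0.0436).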

How the results depend on the processing

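Most values of single genes kept their direction and their side of the threshold. When the fit adjusted for the fraction of each library that fell in genes (the share), 4 genes were called between D1 and D2 in ventral striatum, and Etv1 turned to 0.06 in dorsal and 0.24 in ventral striatum. For dorsal against ventral striatum in D1, 1 gene was called with median-ratio scaling, quantile normalization or edgeR; there Fezf2 turned to 0.07, 0.16 and 0.15, to 0.04 in EM libraries and to 0.03 with the name code as a covariate, and Ctgf to -0.02 in EM libraries. For cortex against dorsal striatum Nxph4 turned to -0.18 (quantile) and -0.16 (EM), and against ventral striatum to -0.11 (EM). The interaction called 2 genes when scaled to reads in genes, 2 with the code as a covariate and 3 with the share as a covariate; under these, Etv1 turned to -0.02 (share) and Tle4 to 0.03 (code), and Tbr1 passed with the code (1.15, limma adjusted p = 0.0459) and with the share (1.31, limma adjusted p = 0.0437), and Cux1 when scaled to reads in genes (-0.34, limma adjusted p = 0.0364) and with the share (-0.32, limma adjusted p = 0.0493). In EM libraries 4 pairs were called in cortex and 0 in D1 dorsal striatum, where Etv1 and Tle4 turned to -0.11; 0 pairs were called there with Spearman's rho, and 0 without D1 dorsal striatum replicate 3. The ratio of Fezf2 turned to -0.03 with a pseudocount of 0.1 in ventral striatum; this, and leaving out that library, were chosen after seeing the data. Leaving out 1 library at a time gave 6 to 7 genes called in both D1 against D2 comparisons. Over all genes, calls for D1 against D2 in dorsal striatum fell from 2871 to 1389 in EM libraries and 1658 with the code, in ventral striatum from 5443 to 1218 with the share; for the interaction they rose from 313 to 480 with the code, and for males they ran from 0 (no filter) to 278 (code) around 11. Fewer libraries enter the EM fits; for the other settings the cause was not tested. Replicate numbers follow accession order and pair nothing, and the labels do not tie libraries to shared mice. In the EM series, however, name numbers run on across regions (11 runs in D1, 8 in D2, the pools of a run having the same number of males), so a replicate block on these runs was added after seeing the data. Libraries of a run deviated together with a median r of 0.11 to 0.19, over 0.1 in 9 of 11 (dorsal against ventral, D1), 5 of 8 (D2), 6 of 11 (cortex against dorsal) and 7 of 11 runs (cortex against ventral). Between different runs the median r was -0.02, 0.03, 0.02 and -0.01. The closest library of the other region was that of the own run in 5 of 11, 1 of 8, 4 of 11 and 3 of 11. Whether a run shares mice is not stated. The main fits did not pair the libraries of a run, so their p-values between regions ignore any such pairing. Over these libraries with the block, 8 genes were called for cortex against either striatal region and 3 for dorsal against ventral in each receptor class; there Tbr1 passed (0.46, limma adjusted p = 0.0489 in D1 and -0.79, limma adjusted p = 0.00976 in D2), Cux1 no longer did in D1 (-0.15), Fezf2 and Ctgf turned to 0.04 and -0.02, and Nxph4 to -0.09 and -0.05 in cortex against dorsal and ventral striatum. Tbr1 also passed in D2 with the share as a covariate (-0.79, limma adjusted p = 0.0421). Values near 3 reads (0.0373 to 0.140 CPM), as for Nxph4 and Cplx3 in D2, are limited by depth.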
